A study of Homo sapiens with 80 samples.

Results

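The genes of the DNA methylation machinery were followed through cardiomyocyte differentiation of human pluripotent stem cells: DNMT1, DNMT3A, DNMT3B and DNMT3L of the methyltransferase family, UHRF1, and TET1, TET2 and TET3. They were taken by symbol, and all 8 were found among the 43388 genes of each of the 2 expression tables. The experiments asked how the early course differs between differentiations that end with many or few cardiomyocytes, scored on day 16 by flow cytometry for cardiac troponin T. The multi-omic experiment used WTC11, an induced pluripotent stem cell line, in poly(A) RNA libraries from wells taken every 2 days up to day 10 and then on days 13 and 16. Its 25 high purity libraries were wells of 1 differentiation at passage 52 and its 31 low purity libraries wells of 1 differentiation at passage 69, so purity, passage and differentiation cannot be told apart there. The RNA-only experiment used total RNA from 1 high and 1 low purity differentiation of each of 3 lines at 4 matched stages: the start (day 0), the stage of day 2 or 3, the stage of day 4 or 5 and the last, of day 6 or 7.

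In every group the WNT pathway activator CHIR99021 was given on day 0, and IWP2, which blocks WNT secretion, followed on day 2 or 3. Insulin was present from day 6 or 7. The lines of the RNA-only experiment were H9, an embryonic stem cell line (high purity from passage 58, low from passage 55), IMR90-4, an induced line (high from passage 55, low from passage 75), and WTC11 (high from passage 81, low from passage 69). The multi-omic wells numbered 4 high and 4 low on days 0, 2, 4 and 6, 3 and 4 on day 8, 1 and 4 on day 10, 2 and 4 on day 13, and 3 and 3 on day 16. Values are in TPM, a share of each library's transcripts corrected for transcript length, which allows genes to be compared within a library. Libraries held 6579715 to 18143597 reads in the multi-omic and 17990882 to 40357968 reads in the RNA-only experiment. The multi-omic TPM and count tables disagree on names, as 50 of 56 count columns match the TPM of another name. The TPM names are used throughout, and every multi-omic result rests on them. By TPM, each multi-omic library with a partner in its group was most like a library of its own group except low purity replicate 1 of day 13, so results of that day are also given without it where it bears on them. As wells come from a single differentiation per class, p-values there measure the spread between wells.

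DNA methyltransferases add a methyl group to cytosines, mostly at CpG dinucleotides. DNMT1 copies the pattern to the new strand after replication, guided by UHRF1, which binds hemimethylated CpGs, while DNMT3A and DNMT3B set new methylation and DNMT3L is an inactive partner that stimulates them. TET enzymes oxidise methylcytosine and so open the way to its removal. Human pluripotent stem cells are known for high DNMT3B and TET1.

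All of these genes but DNMT3L, which lies on chromosome 21 from 44246339 to 44261897, had a promoter in the RefSeq set of GRCh38.p14. The 4 stretches below belong to genes that moved most or together: DNMT1 and UHRF1 of the maintenance pair, DNMT3B, and TET2. Each runs from 100 bases before to 20 bases after an annotated transcript start, 5′ to 3′ on the strand of the gene, at chr19:10194934-10195053 on the minus strand for DNMT1, chr19:4909401-4909520 on the plus strand for UHRF1, chr20:32779752-32779871 on the plus strand for DNMT3B and chr4:105145775-105145894 on the plus strand for TET2. Capitals mark a match to the 8 letters TTTNNCGC on either strand, a core of the kind bound by E2F factors of the cell cycle.
DNMT1: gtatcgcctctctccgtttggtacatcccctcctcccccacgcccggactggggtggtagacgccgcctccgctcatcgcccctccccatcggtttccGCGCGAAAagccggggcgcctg
UHRF1: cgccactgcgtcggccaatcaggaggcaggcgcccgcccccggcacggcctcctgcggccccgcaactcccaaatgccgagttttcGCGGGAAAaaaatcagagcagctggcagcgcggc
DNMT3B: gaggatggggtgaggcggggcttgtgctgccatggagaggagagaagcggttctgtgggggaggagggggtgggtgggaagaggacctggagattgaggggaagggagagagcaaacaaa
TET2: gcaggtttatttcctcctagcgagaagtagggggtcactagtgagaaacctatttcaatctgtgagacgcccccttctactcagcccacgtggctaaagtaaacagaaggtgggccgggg

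The match began 2 bases before the start in DNMT1 and 14 bases before it in UHRF1. Among the 18 windows of 300 bases, 250 before to 50 after a start, held for 7 of these genes, 3 had a match, 1 of DNMT1 and 2 of UHRF1. Of all 35116 windows in the set 6.89% had one. The DNMT1 window held 30 CpGs and the 3 UHRF1 windows 36, 40 and 46, against a median of 14 over all windows. The DNMT3B window held 3, and its start at 32779852 lies inside the annotated gene, which begins at 32762385. TET2 had windows with 13 and 35 CpGs. A match of letters is a description and shows neither binding nor control.

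The 8 genes followed different courses in the multi-omic wells. DNMT3B, DNMT1 and UHRF1 were high on day 0 and low on day 16, TET2 rose between days 0 and 2, and DNMT3A fell between days 0 and 2 and rose between days 2 and 4. TET1 and TET3 had no called change in any single step tested, though some steps short of the fold threshold had an adjusted p under 0.05. Between high and low purity wells of a day, 2 differences passed both thresholds, lower UHRF1 and higher TET1 in the high purity wells of day 16, when 13.4% of all 25664 tested genes passed them in either direction. A gene was called, or said to have risen or fallen, at a Benjamini-Hochberg adjusted p under 0.05 over all tested genes and a log2 difference of at least 1.

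**Figure D1:**
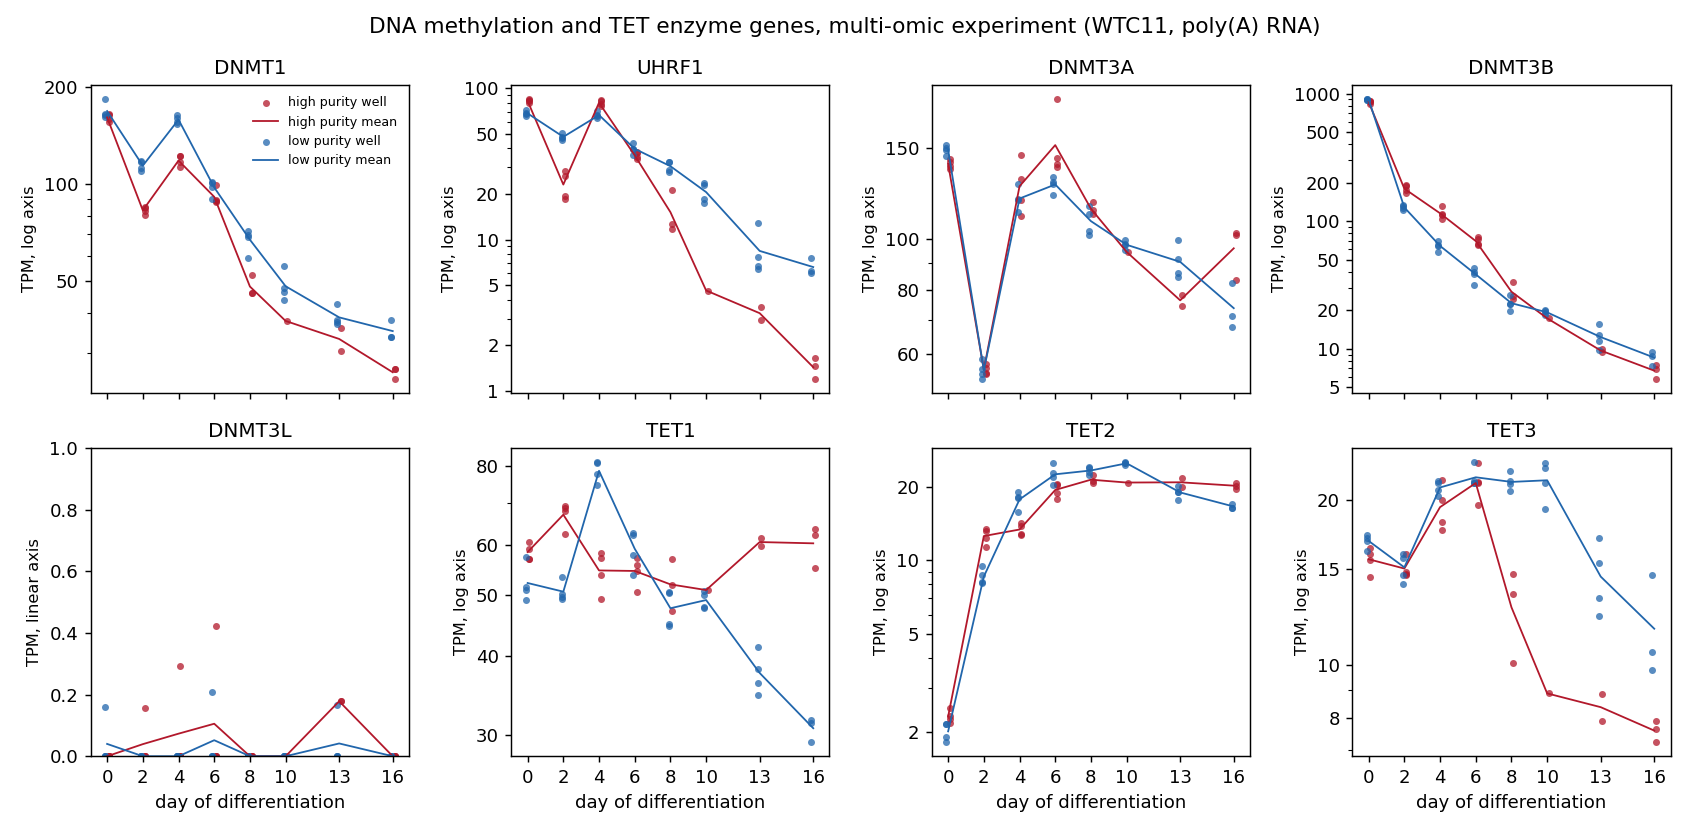
TPM of the 8 genes (log axis, linear for DNMT3L) against day of differentiation in the 56 multi-omic WTC11 libraries, with 1 point per well and lines through the group means, red for high and blue for low purity. DNMT3B falls from over 800 TPM on day 0 to under 10 on day 16 in both differentiations, UHRF1 dips on day 2 in high purity wells, and TET1 parts between the classes on days 13 and 16.

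DNMT1, the maintenance methyltransferase, lies on chromosome 19 from 10133346 to 10194953 (GRCh38). Its day 0 values were 164, 156, 160 and 165 TPM in the high and 184, 162, 165 and 164 TPM in the low purity class, and the classes overlapped. On day 16 it was at 26.7, 26.8 and 24.9 TPM in high and 38.0, 33.7 and 33.5 TPM in low purity wells. DNMT1 fell between days 4 and 8 in both differentiations, by 1.12 (SE 0.07, limma adjusted p = 1.29e-17) in high purity wells and by 1.29 (SE 0.07, limma adjusted p = 1.31e-20) in low purity wells on the log2 scale. All multi-omic differences are on the scale of log2 (TPM + 1), which understates the change of low genes, and were taken after scaling between libraries, so they can differ from the ratio of the TPM printed. Between days 0 and 2 the log2 differences were -0.98 and -0.72, with adjusted p under 0.05 but short of the fold threshold.

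DNMT1 was lower in high than in low purity wells on days 2, 4, 8 and 16 at an adjusted p under 0.05, each time by less than the fold threshold. On day 2 the high purity wells had 84.2, 84.8, 82.9 and 80.3 TPM and the low purity wells 118, 110, 112 and 117 TPM. The log2 difference was -0.39 (SE 0.07, limma adjusted p = 7.08e-06), and a two-sided exact permutation test gave 0.0286, its lowest possible p with 4 wells in each class. On day 4 the wells stood at 113 to 122 TPM in the high and at 154 to 164 TPM in the low purity class, a log2 difference of -0.41. In TPM before scaling between libraries, high and low purity wells did not overlap on days 2, 4, 8, 13 and 16. After scaling, the log2 difference on day 13 was -0.03 (limma adjusted p = 0.828).

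UHRF1, the partner that brings DNMT1 to replicated DNA, lies on the same chromosome from 4903080 to 4962154. On day 0 it was at 83.0, 79.3, 81.8 and 84.8 TPM in high and at 71.7, 67.2, 65.2 and 68.1 TPM in low purity wells. By day 2 it stood at 26.2, 18.5, 19.3 and 28.3 TPM in high and at 50.9, 46.7, 47.8 and 45.2 TPM in low purity wells, so the class that was higher on day 0 was lower on day 2, with no overlap on either day. On day 4 high purity wells were back at 75.9 to 83.1 TPM, above the 63.4 to 70.1 TPM of low purity wells. The log2 differences of 0.21 on day 0 and 0.27 on day 4 had limma adjusted p of 0.33 and 0.0954.

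In high purity wells UHRF1 fell by 1.84 between days 0 and 2 (SE 0.13, limma adjusted p = 1.16e-16) and rose by 1.66 between days 2 and 4 (SE 0.13, limma adjusted p = 5.54e-15). In low purity wells the same steps gave -0.67 and 0.41, each short of the fold threshold. Whether this first step differed between the differentiations was itself tested, and the difference was -1.18 (SE 0.18, limma adjusted p = 3.76e-06). It was called in all 16 fits that left out 1 well. The direct comparison on day 2, -0.97 (SE 0.13, limma adjusted p = 4.27e-08), lay just inside the fold threshold and passed it in 3 of 8 fits that left out 1 well: -1.03 and -1.08 without high purity replicates 1 and 4, and -1.01 without low purity replicate 4.

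Between days 4 and 8 UHRF1 fell by 2.22 in high and fell by 1.16 in low purity wells, and between days 8 and 16 it fell by 2.59 and fell by 1.85. On day 8 high purity wells had 21.2, 12.6 and 11.7 TPM and low purity wells 28.1, 28.6, 32.6 and 32.7 TPM. On day 10 the single high purity well had 4.61 TPM and the low purity wells 17.4 to 23.7 TPM, which was not tested. On day 13 the values were 2.96 and 3.57 TPM in high and 12.8, 6.41, 7.71 and 6.74 TPM in low purity wells, where low purity replicate 1 stood above the other wells. The classes did not overlap from day 8 on.

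On day 16 UHRF1 was at 1.46, 1.65 and 1.20 TPM in high and at 7.55, 5.97 and 6.23 TPM in low purity wells. The log2 difference was -1.53 (SE 0.15, limma adjusted p = 8.80e-12), and a two-sided exact permutation test gave p = 0.1, its lowest possible value with 3 wells in each class. At this low level the added 1 TPM matters: edgeR on whole reads recovered from the TPM gave -1.99 (adjusted p = 9.91e-12). On days 8 and 13 the differences of -0.79 and -0.95 had adjusted p of 7.86e-06 and 3.89e-06 with limma and stayed under the fold threshold. On day 13 edgeR on the recovered reads gave -1.17 (adjusted p = 1.23e-05) and limma with 0.1 TPM added gave -1.10, both past the threshold. The day 13 value was -0.76 without low purity replicate 1, and it passed the threshold, at -1.05, -1.07 and -1.01, without high purity replicate 3 and without low purity replicates 2 and 4. The change from day 0 to day 16 differed between the differentiations by -1.74 (SE 0.20, limma adjusted p = 9.10e-10).

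**Figure D2:**
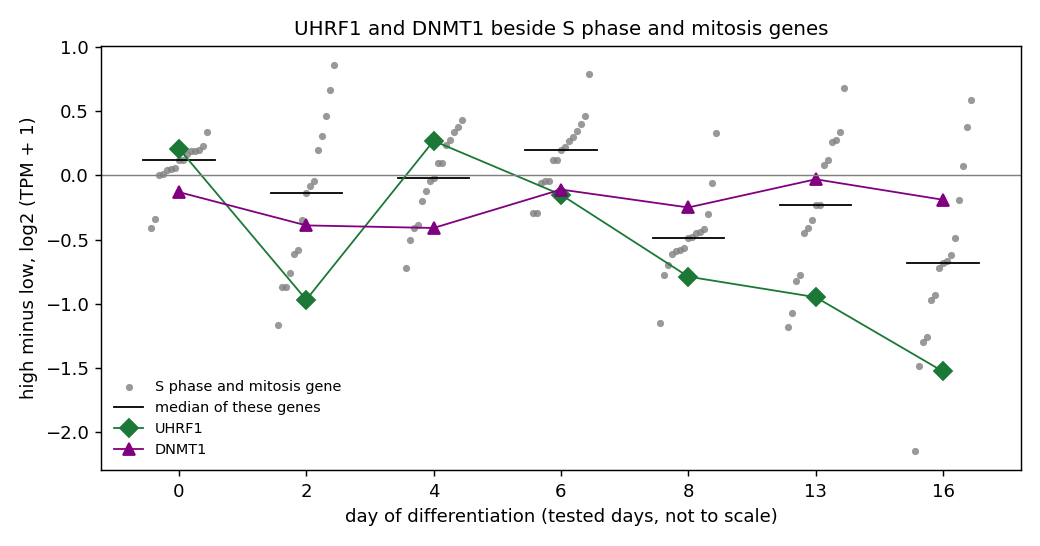
High minus low purity difference in log2 (TPM + 1) on the 7 tested days for UHRF1 (green diamonds) and DNMT1 (purple triangles), beside 15 S phase and mitosis genes (grey points, sorted within a day, with their median as a bar). UHRF1 lies at -0.97 on day 2, where the median of these genes is -0.14, and at -1.53 on day 16, where it is -0.68.

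UHRF1 is itself transcribed with the cell cycle, so 15 genes of S phase and mitosis were set beside it. On day 2, 1 of the 15 was called lower and 0 higher, CCNE2 at -1.17, against 3.08% lower and 2.24% higher among all genes, and the list median was -0.14 against 0.00 for all genes. MKI67, a marker of cycling cells, differed by -0.87, and MCM2, a replication licensing gene, by -0.08. By adjusted p alone 4 of the 15 were higher and 7 lower, against 37.4% of all genes in either direction. The genes furthest in the higher direction were BUB1 at 0.86 and CDK1 at 0.67. On day 16, 4 were called lower and 0 higher, led by RRM2 at -2.15 and AURKB at -1.49, against 7.65% lower and 5.76% higher among all genes, with a median of -0.68 against 0.00 for all genes. MKI67 differed by -1.26 and MCM2 by -0.19 on that day. By adjusted p alone 2 of the 15 were higher and 11 lower, against 43.0% of all genes in either direction. The furthest in the higher direction were TYMS at 0.59 and MCM3 at 0.38. The summed level of the 15 genes was 1790 to 1930 TPM in high and 1770 to 1840 TPM in low purity wells on day 2, and 212 to 278 TPM against 422 to 471 TPM on day 16. Their part in the UHRF1 differences was not tested.

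DNMT3A, a de novo methyltransferase on chromosome 2 from 25227874 to 25342590, fell and rose again within 4 days in both differentiations. Its day 0 values were 141, 137, 143 and 139 TPM in high and 149, 145, 152 and 150 TPM in low purity wells. By day 2 it stood at 54.9, 56.4, 57.5 and 55.2 TPM and at 54.9, 53.7, 58.6 and 56.2 TPM, and on day 4 at 111 to 146 TPM and 113 to 128 TPM. It fell by 1.34 (SE 0.08) in high and by 1.56 (SE 0.08) in low purity wells from day 0 to day 2, and the rise from day 2 to day 4 was 1.04 and 1.03 (SE 0.08 each), the largest of these limma adjusted p being 1.68e-15. The 2 rises lay close to the fold threshold. In high purity wells the rise was 0.98 without day 4 replicate 2, and in low purity wells it was 0.98 under relative log expression scaling.

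Between the classes, the log2 differences of DNMT3A lay between -0.15 and 0.31 up to day 13. On day 6 the high purity wells had 144, 140, 138 and 187 TPM and the low purity wells 128, 129, 132 and 122 TPM, a log2 difference of 0.23 (limma adjusted p = 0.0176) that was 0.10 without the highest well. On day 16 the levels were 102, 103 and 83.4 TPM in high and 82.2, 67.6 and 71.1 TPM in low purity wells. All 3 high purity wells were above the low purity wells, by a log2 difference of 0.60 (SE 0.09, limma adjusted p = 3.14e-07), under the fold threshold.

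DNMT3B, the de novo enzyme of pluripotent cells, lies on chromosome 20 from 32762385 to 32809356 and was the most abundant of the 8 transcripts on day 0. It was at 859, 825, 882 and 875 TPM in high and at 903, 892, 908 and 884 TPM in low purity wells. By day 2 it had come down to 174, 193, 187 and 165 TPM in high and to 131, 122, 133 and 126 TPM in low purity wells. It fell by 2.29 (SE 0.09, limma adjusted p = 2.23e-25) in the former and by 2.96 (SE 0.09, limma adjusted p = 1.25e-29) in the latter. The log2 changes were -1.86 and -1.52 between days 4 and 8 and -1.72 and -1.11 between days 8 and 16, all called, down to 7.46, 6.93 and 5.78 TPM in high and 7.30, 8.84 and 9.38 TPM in low purity wells. Between days 2 and 4 the difference of -1.05 in low purity wells was called and that of -0.76 in high purity wells was not. The former was -0.99 without day 4 replicate 1 and -0.99 without scaling beyond TPM.

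On days 2, 4 and 6 DNMT3B was higher in every high purity well than in every low purity well, by less than the fold threshold. On day 4 the high purity wells had 111, 114, 132 and 104 TPM and the low purity wells 57.3, 65.4, 69.4 and 63.7 TPM. On day 6 they had 65.2, 75.3, 66.2 and 72.5 TPM against 39.8, 43.1, 38.3 and 31.8 TPM. The log2 differences were 0.55 on day 2, 0.85 on day 4 and 0.84 on day 6 (SE 0.09 each), with limma adjusted p of 2.64e-06, 1.56e-10 and 1.98e-10. Exact two-sided permutation tests gave p = 0.0286 on each of these days, again the lowest possible. On day 0 the log2 difference was -0.12 with the low purity wells all higher, and the difference in the change from day 0 to day 4, 0.97 (SE 0.13, limma adjusted p = 6.62e-08), stayed under the threshold, which it passed at 1.02 without high purity day 4 replicate 4.

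Pluripotency genes moved in the same wells. Of 9 tested genes of a list of 10, 3 were called higher in high purity wells on day 2, 5 on day 4 and 3 on day 6, with 0 lower, against 2.24%, 3.62% and 3.61% higher among all genes. The list medians were 0.84, 1.56 and 0.82 against 0.00 for all genes. NANOG, a core pluripotency factor, differed by 2.34 on day 2 and 1.58 on day 4, and SOX2, another, by 2.21 and 2.71. On day 6 NANOG differed by 0.08 (limma adjusted p = 0.625), which was not called, and SOX2 by 1.63. The summed level of the list was 2430 to 2670 TPM in the high purity wells of day 2 against 1540 to 1610 TPM in the low, and 2210 to 2890 TPM against 1260 to 1390 TPM on day 4. Cardiomyocyte genes went the other way on day 4, when 7 of 9 were called lower in high purity wells, against 4.22% of all genes, and their summed level was 133 to 180 TPM against 1290 to 1430 TPM. The part of these genes in the DNMT3B differences was not tested. In bulk RNA, fewer cells of a type and less RNA per cell cannot be told apart.

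DNMT3L was barely detected. It had reads in 8 of 56 multi-omic libraries, at most 3 reads and 0.422 TPM, and was not tested there. A count of 0 allows up to 3 reads, so these libraries show no difference in DNMT3L at their depth. In the RNA-only experiment 15 of 24 libraries had reads, and the highest was IMR90-4 of low purity on day 2 or 3, with 29 reads and 0.726 TPM. The same line had 14 reads there in its high purity differentiation, and H9 at most 3 in any library.

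**Figure D3:**
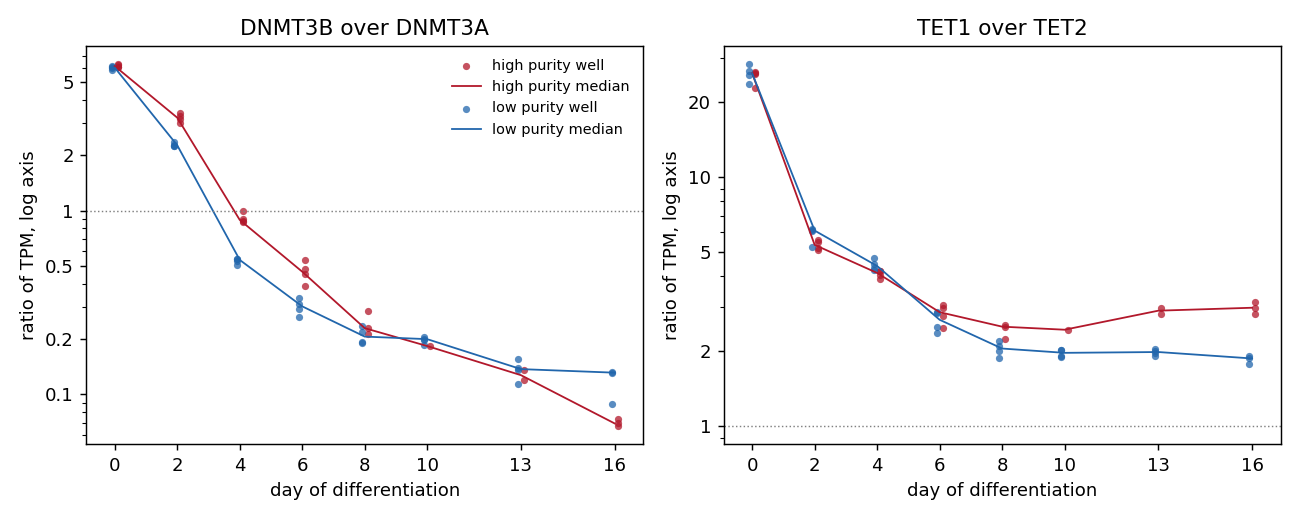
Ratio of DNMT3B to DNMT3A TPM (left) and of TET1 to TET2 TPM (right) on log axes against day, with 1 point per multi-omic well and lines through the medians, red for high and blue for low purity. The DNMT3B to DNMT3A ratio passes below 1 by day 4 in both differentiations, at 0.870 to 0.998 in high and 0.507 to 0.545 in low purity wells.

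Per transcript length, the de novo pair changed places in the multi-omic wells. The DNMT3B to DNMT3A ratio of TPM was 6.04 to 6.29 in high and 5.87 to 6.15 in low purity wells on day 0, and 2.99 to 3.42 against 2.25 to 2.38 on day 2. On day 4 it was below 1 in all 8 wells, and on day 16 it was 0.0670 to 0.0729 in high and 0.0888 to 0.132 in low purity wells. High purity wells had the higher ratio in every well on days 2, 4 and 6 and the lower one in every well on day 16. DNMT3B made up 86.0% of the summed TPM of DNMT3A, DNMT3B and DNMT3L in high purity wells on day 0 and 6.52% on day 16, and in low purity wells 85.7% and 10.5%.

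TET1, the main TET gene of pluripotent cells, lies on chromosome 10 from 68560337 to 68694487. On day 0 it was at 57.1, 59.1, 60.7 and 57.0 TPM in high and at 57.4, 51.5, 49.1 and 50.9 TPM in low purity wells. Its order between the classes turned more than once. On day 2 high purity wells were higher, at 62.4 to 69.2 against 49.3 to 53.4 TPM, and on day 4 they were lower, at 49.3 to 58.3 against 74.7 to 81.2 TPM, with no overlap on either day. The log2 differences were 0.47 (limma adjusted p = 7.86e-11) and -0.51 (limma adjusted p = 3.70e-12), and the changes from day 0 to days 2 and 4 differed between the differentiations by 0.36 and -0.61 (SE 0.07 each), all under the fold threshold.

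On days 13 and 16 the classes parted further. On day 13 it was at 61.5 and 59.8 TPM in high and at 38.1, 41.3, 36.3 and 34.7 TPM in low purity wells, a log2 difference of 0.87 (SE 0.06, limma adjusted p = 2.28e-16). On day 16 it was at 55.2, 62.3 and 63.6 TPM in high and at 29.2, 31.3 and 31.7 TPM in low purity wells, and no well of 1 class reached the other. That difference of 1.17 (SE 0.06, limma adjusted p = 5.93e-22) was called, and the exact two-sided permutation test again gave its lowest possible p, 0.1. Without scaling beyond TPM it was 0.95 and no longer passed the fold threshold. The change from day 0 to day 16 differed by 1.07 (SE 0.07, limma adjusted p = 3.89e-16) and by 0.79 without that scaling. In low purity wells TET1 changed by -0.77 between days 4 and 8 (limma adjusted p = 4.61e-18). Between days 8 and 16 it changed there by -0.40 (limma adjusted p = 3.01e-08). In high purity wells the same steps gave 0.09 and 0.43. Each was short of the fold threshold, and days 4 and 16 were not compared directly.

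TET2, on chromosome 4 from 105145875 to 105279803, was low on day 0 and rose by day 2. Its day 0 values were 2.49, 2.25, 2.32 and 2.16 TPM in high and 2.15, 1.81, 1.91 and 2.15 TPM in low purity wells. By day 2 it had 12.3, 13.4, 13.2 and 11.4 TPM in high and 8.07, 8.13, 8.70 and 9.48 TPM in low purity wells. The rise was 2.02 (SE 0.06, limma adjusted p = 1.43e-29) in high and 1.56 (SE 0.06, limma adjusted p = 1.90e-25) in low purity wells. Low purity wells were the higher on day 4, at 15.8 to 19.1 against 12.7 to 14.2 TPM, and on day 16 high purity wells were, at 19.6 to 20.8 against 16.4 to 17.0 TPM.

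TET2 and TET1 therefore shared the same order between the classes on days 2, 4 and 16. For TET2 the log2 differences were 0.56, -0.38 and 0.48 on these days, with limma adjusted p of 4.41e-10, 2.41e-06 and 2.21e-07, and all were under the fold threshold. TET3, on chromosome 2 from 73983631 to 74135498, was at 14.5 to 16.4 TPM in high and 16.2 to 17.3 TPM in low purity wells on day 0. It had no called change in any single tested step. Between days 4 and 8 and between days 8 and 16 TET3 changed by -0.43 and -0.47 in high purity wells. In low purity wells these steps gave -0.03 and -0.64. On day 8 it was at 14.7, 13.5 and 10.1 TPM in high and at 22.6, 21.7, 21.4 and 20.8 TPM in low purity wells, a log2 difference of -0.51 (SE 0.08, limma adjusted p = 3.85e-07). High purity wells also lay below all low purity wells on days 13 and 16, by -0.54 and -0.35, the latter -0.19 (limma adjusted p = 0.0451) without low purity replicate 1.

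The balance of the TET genes moved toward TET2. TET1 made up 76.5% of the summed TET TPM in high and 73.4% in low purity wells on day 0, and TET2 3.02% and 2.82%. On day 16 TET2 made up 23.0% in high and 28.1% in low purity wells. TET3 was at 8.64% in high and 19.8% in low purity wells, and TET1 at 68.4% and 52.1%. The TET1 to TET2 ratio was 22.9 to 26.4 in high and 23.7 to 28.5 in low purity wells on day 0, overlapping, and 2.81 to 3.14 against 1.78 to 1.91 on day 16.

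**Figure D4:**
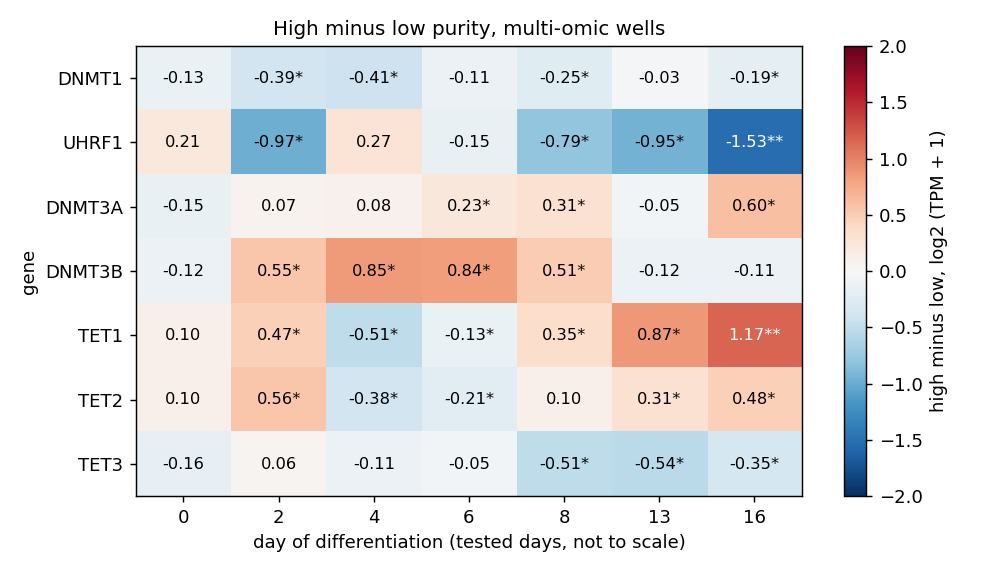
High minus low purity difference in log2 (TPM + 1) for the 7 tested genes (rows) on the 7 tested days (columns, not to scale), red where high purity wells were higher and blue where they were lower. A single star marks an adjusted p under 0.05 and a double star that and a difference of at least 1, which UHRF1 at -1.53 and TET1 at 1.17 reach on day 16.

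Counted over the 7 tested genes, the difference between the classes passed both thresholds for 0 genes on day 0, when 1.07% of all 25664 tested genes did, and for 0 on days 2, 4, 6, 8 and 13, when 5.33%, 7.84%, 8.80%, 12.2% and 10.8% did. On day 16 it did for 1 higher and 1 lower gene, against 5.76% higher and 7.65% lower among all genes. By adjusted p alone 0 of 7 passed on day 0, against 14.6% of all genes. The counts were 5, 4, 4, 6, 4 and 6 of 7 on days 2, 4, 6, 8, 13 and 16, against 37.4%, 36.8%, 39.9%, 44.1%, 35.9% and 43.0%. At an unadjusted p under 0.05, 2 of the 7 passed on day 0, against 25.7% of all genes. The classes did not overlap in TPM for 4, 5, 5, 2, 4, 5 and 6 of the 7 genes on days 0, 2, 4, 6, 8, 13 and 16, against 21.8%, 34.0%, 31.7%, 30.7%, 42.2%, 47.5% and 47.6% of all tested genes.

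Of the 49 pairs of gene and day, 29 had an adjusted p under 0.05, 14 higher and 15 lower in high purity wells. Leaving out the scaling between libraries moved the median difference of all genes to -0.18 on day 8, -0.13 on day 13 and -0.12 on day 16. All 29 pairs kept their direction without it and 25 kept an adjusted p under 0.05. Those that lost it were TET1 on day 6 and DNMT3A and TET1 on day 8, at -0.11, 0.08 and 0.12, and TET2 on day 13, at 0.13. Without it 4 pairs were called, all lower, in place of 1 higher and 1 lower: UHRF1 at -1.04, -1.01, -1.10 and -1.64 on days 2, 8, 13 and 16.

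With time, 21 of 56 pairs of gene and step were called, 5 higher and 16 lower. Between days 0 and 2, 4 of 7 genes were called in high purity wells and 3 in low purity wells, against 16.7% and 17.9% of all genes. Between days 2 and 4 it was 2 in each, against 13.7% and 16.9%, between days 4 and 8 it was 3 in each, against 14.0% and 11.3%, and between days 8 and 16 it was 2 in each, against 11.4% and 6.39%. DNMT3B made up 7 and UHRF1 6 of the 21. How far the change since day 0 differed between the differentiations was called for 1 of 7 genes on day 2 (3.22% of all genes), 0 on days 4 and 8 (7.01% and 10.3%) and 2 on day 16 (13.4%). UHRF1 on day 8, at -1.00 (SE 0.19, limma adjusted p = 4.92e-05), lay just inside the fold threshold and was called in 6 fits that left out 1 well. The 4 comparisons share the wells of day 0.

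The RNA-only experiment held the same genes in 6 differentiations. Its TPM come from another kind of library, so levels are compared only within it. DNMT3B was at 277, 535 and 442 TPM on day 0 in the high purity differentiations of H9, IMR90-4 and WTC11, and at 449, 534 and 385 TPM in the low purity ones. On day 2 or 3 it was at 44.1, 48.2 and 62.5 TPM and at 33.8, 50.3 and 89.8 TPM. It was lower in 6 of 6 differentiations, by 2.99 on the log2 scale of counts (SE 0.26, edgeR adjusted p = 9.47e-08). TET2 went from 1.51, 0.813 and 0.939 TPM to 2.60, 2.53 and 3.97 TPM in the high and from 1.24, 0.655 and 0.847 TPM to 3.21, 2.39 and 2.80 TPM in the low purity differentiations, a rise of 1.72 (SE 0.15, edgeR adjusted p = 8.63e-08) seen in 6 of 6.

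**Figure D5:**
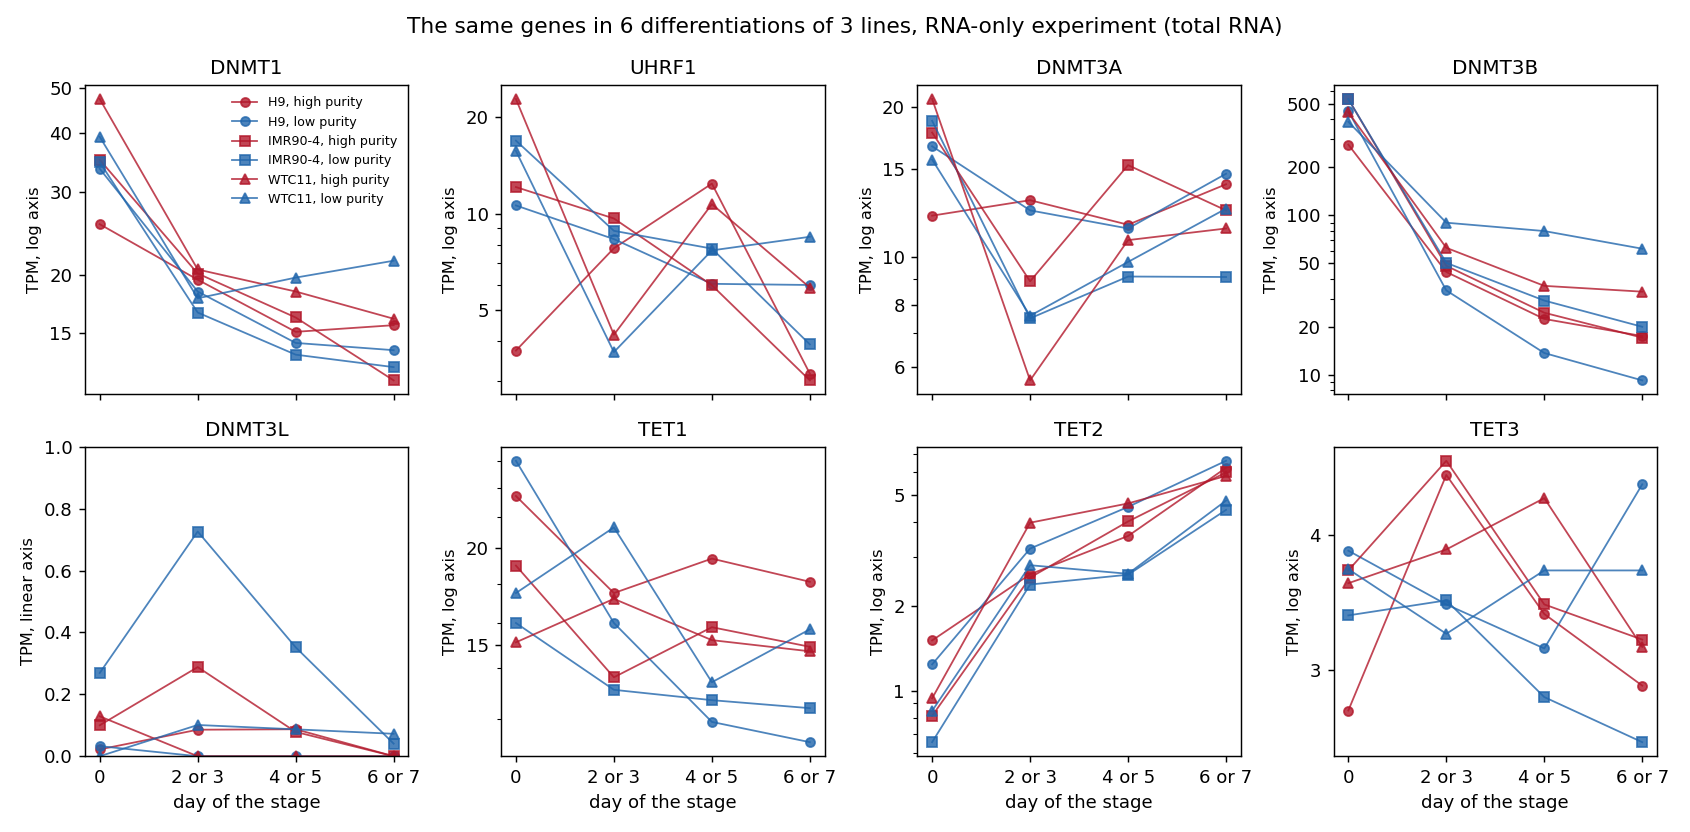
TPM of the 8 genes (log axis, linear for DNMT3L) at the 4 stages of the RNA-only experiment, with 1 line per differentiation, circles for H9, squares for IMR90-4, triangles for WTC11, red for high and blue for low purity. DNMT3B is lower and TET2 higher on day 2 or 3 than on day 0 in all 6 differentiations.

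These were the 2 called of 8 genes tested for this step, against 25.6% of all genes, 1 higher against 14.8% and 1 lower against 10.8% of all 23848 tested genes. DNMT1 and DNMT3A were lower by less than the fold threshold, at -0.76 (SE 0.10, edgeR adjusted p = 6.31e-06) and -0.78 (SE 0.17, edgeR adjusted p = 0.000850). TET3 was at 0.30 (SE 0.12, edgeR adjusted p = 0.0486), and its edgeR adjusted p went up to 0.129 when 1 line was left out. UHRF1 was at -0.69 (SE 0.36, edgeR adjusted p = 0.120), and the lines did not move alike: it went from 22.8 to 4.18 TPM and from 15.7 to 3.69 TPM in WTC11, but from 3.73 to 7.79 TPM in the high purity H9 differentiation. Without H9, DNMT3A and UHRF1 were also called, at -1.09 and -1.07. DNMT3A was at -0.59 (edgeR adjusted p = 0.0558) without IMR90-4 and at -0.47 (edgeR adjusted p = 0.0631) without WTC11, so its adjusted p was under 0.05 in 1 of the 3 fits that left out a line. Of the 8 genes 0 were called for the next steps, to day 4 or 5 and to day 6 or 7, against 6.86% and 3.72% of all genes. DNMT3B was at -0.78 in the former (adjusted p = 0.0341) and TET2 at 0.56 in the latter (adjusted p = 0.0229), by edgeR. Neither kept an adjusted p under 0.05 in every fit that left out a line: DNMT3B had 0.141 without H9 and 0.234 without IMR90-4, and TET2 had 0.401 without IMR90-4 and 0.101 without WTC11.

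Between high and low purity differentiations of the RNA-only experiment each of the 4 stages had 0 of 8 genes called, against 0.0% of all genes. By edgeR the count at an unadjusted p under 0.05 was also 0 of 8 at each stage and for the mean of the stages, against 1.48%, 7.95%, 7.54% and 12.1% of all genes at the 4 stages and 15.8% for the mean. By DESeq2 0 were called. For DNMT3B on day 4 or 5 the difference was -0.35 with a 95% interval from -1.13 to 0.44, and for UHRF1 on day 2 or 3 it was 0.03 with an interval from -0.63 to 0.70. For comparison, the multi-omic wells gave 0.85 for DNMT3B on day 4 and -0.97 for UHRF1 on day 2. Both values, on a scale of their own, lay outside these intervals. The TET1 difference on day 6 or 7 was 0.28 with an interval from -0.06 to 0.62, and the multi-omic wells of day 6 gave -0.13, also outside the interval. The called TET1 difference of day 16 came later than any RNA-only stage. With 3 lines, differences inside these intervals could not be resolved.

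WTC11 was in both experiments, with its low purity cells at passage 69 in each. On day 4 or 5 of the RNA-only experiment DNMT3B was at 36.1 TPM in the high and 79.6 TPM in the low purity WTC11 differentiation, and on day 6 or 7 at 33.2 and 61.7 TPM. That order is the reverse of the multi-omic wells of days 4 and 6. With 1 library each, this difference has no replicate check. UHRF1 was low on day 2 or 3 in both of these WTC11 differentiations, whereas among multi-omic wells its fall was called only in the high purity class. The RNA-only ratio of DNMT3B to DNMT3A was 1.25 to 2.91 on day 6 or 7 in high and 0.629 to 4.93 in low purity differentiations. Only the low purity H9 differentiation, at 0.629, was below 1 at that stage. In WTC11 the ratio fell from 21.3 in the high and 24.5 in the low purity differentiation on day 0 to 3.34 and 8.15 on day 4. On day 6 it was 2.91 and 4.93. The multi-omic wells were below 1 on days 4 and 6, but they started lower, at 6.04 to 6.29 in high and 5.87 to 6.15 in low purity wells. The ratio thus fell in both experiments. As the 2 kinds of library differed already on day 0, whether the ratio passes below 1 cannot be compared between them.

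Other genes that bear on the writing and maintenance of methylation, for or against it, were taken as a list of 13, of which 12 were tested. Between days 0 and 2, 6 were called lower and 0 higher in each differentiation, with medians of -1.03 in high and -1.00 in low purity wells, against 7.04% and 6.87% lower and medians of 0.00 and 0.015 for all genes. The largest in high purity wells were PCNA, the replication clamp, at -1.82 and HELLS, a remodeler needed for methylation of repeats, at -1.41. In low purity wells they were CDCA7L, a paralog of a HELLS partner, at -1.55 and QSER1, a protein that shields promoters from methylation, at -1.40. HELLS was again lower between days 8 and 16, at -2.16 and -1.64. Between the classes 1 gene was called higher on day 2 and on day 4, CDCA7L at 1.15 and 1.42, and 1 lower on day 16, PCNA at -1.09. Among all genes 2.24% and 3.62% were called higher on days 2 and 4, and 7.65% lower on day 16.

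The list of demethylation and base excision repair genes had 17 members, all tested. On day 8, 10 of them were higher and 1 lower in high purity wells at an adjusted p under 0.05, with a median of 0.39, against 44.1% of all genes in either direction and their median of -0.025. Between days 2 and 4 in low purity wells the counts by adjusted p were 10 higher and 2 lower, against 49.7% of all genes. Past both thresholds for that step, 2 were called higher and 0 lower in high purity wells and 3 higher and 1 lower in low purity wells, led in both by CXXC4, a CXXC zinc finger gene, at 2.65 and 3.60, and GADD45B, a stress response gene, at 1.22 and 2.52. Of all genes 13.7% and 16.9% were called in the 2 classes, and the list medians were 0.20 and 0.32 against 0.026 and 0.00 for all genes. On day 16, 3 were called higher and 1 lower in high purity wells, with a median of 0.13, against 5.76% and 7.65% of all genes. The gene called lower was GADD45G, at -1.27. CXXC4 was also higher in high purity wells on days 2 and 13, at 1.14 and 1.03.

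Among 7 methyl-CpG readers, MBD2 was called lower in high purity wells on days 8, 13 and 16, at -1.14, -1.08 and -1.11, and the other 6 were called on none of the tested days. ZBTB38 rose between days 0 and 2 in both differentiations, by 1.18 and 1.43. Of 7 genes that supply methyl groups, all had an adjusted p under 0.05 for a lower level on day 2 than on day 0, in each differentiation, against 25.2% and 26.4% of all genes. MAT2A, which makes the methyl donor, was the only one called, at -1.47 in high purity wells, where 7.04% of all genes were called lower. Germline genes, whose promoters are methylated in most somatic cells, numbered 9 with 6 tested, and 1 was called between the classes on day 0, SYCP3 at -1.07, and 1 on day 16, STK31 at -1.10, against 1.07% and 13.4% of all genes. STK31 rose between days 0 and 2 in both differentiations, by 1.38 and 1.75.

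The wells of day 16 differed in the RNA of genes that mark cell types. As the classes were scored by cardiac troponin T on that day, a difference in cardiomyocyte genes is tied to how they were defined. Of 9 cardiomyocyte genes 7 were called higher and 0 lower in high purity wells, against 5.76% higher among all genes, with a median of 1.89, and TNNT2, which encodes cardiac troponin T, was at 2870 to 3700 TPM in high and 827 to 1230 TPM in low purity wells, a difference of 1.89 (limma adjusted p = 2.39e-06). Their summed level was 11800 to 13900 TPM against 4140 to 6140 TPM. Of 8 fibroblast and stromal genes 7 were called lower, against 7.65% of all genes, and their sums were 576 to 691 TPM in high and 9700 to 13200 TPM in low purity wells. Epicardial genes, 5 of 5 lower, summed to 18.2 to 21.9 TPM against 409 to 559 TPM. Of 6 endothelial genes 4 were called higher and 2 lower, and their sums were 55.3 to 68.8 TPM against 159 to 236 TPM. Of 5 endoderm genes 2 were called higher and 1 lower, and their sums were 74.2 to 476 TPM against 464 to 1240 TPM. Of 9 tested pluripotency genes 1 was called higher and 0 lower, and the sums of their list were 50.1 to 64.6 TPM against 42.6 to 49.5 TPM. NANOG was at 0 TPM in all 3 high purity wells and at 0.0381 to 0.0867 TPM in the low purity wells, a difference of -0.09 (limma adjusted p = 0.640) that was not called. SOX2 differed by 0.32 (limma adjusted p = 0.413), which was not called either. The part of these cell types in the UHRF1 and TET1 differences of day 16 was not tested.

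As a description, each gene was correlated with every gene of at least 10 TPM in some group over the 16 group means, which share 2 differentiations and 8 days. The closest to UHRF1 were BRCA2, MCM10 and CDC45, with r of 0.991, 0.991 and 0.990, and to DNMT1 they were FOXM1, PAXIP1 and FUBP1, with r of 0.986, 0.985 and 0.985. DNMT3B was closest to DHX57 at 0.989, VSIG10 and RCC2, and TET2 to CCDC92 at 0.984, USP30 and FSIP2. The best matches were weaker for DNMT3A, with TCF7L2 at 0.938, for TET3, with ATPSCKMT at 0.938, and for TET1, with GLE1 at 0.847. Among the genes described here, DNMT1 and UHRF1 had r of 0.93, DNMT1 and DNMT3B 0.91, and DNMT3B and TET2 -0.91.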

How the data were processed

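Poly(A) libraries of 56 WTC11 wells (multi-omic) and total RNA libraries of 24 cultures (RNA-only) were made with Illumina TruSeq Stranded mRNA and Takara SMARTer Stranded Total RNA kits, per the labels' protocols. STAR 2.5.3a, featureCounts 2.0.3 and hg38 are named in the submitters' processing notes. The deposited TPM tables of the authors cover 43388 genes, and the deposited count tables hold reads per gene. Of the RNA-only count table, 36 broken lines were left out. Of the 56 multi-omic count columns, 0 matched the reads behind the equally named TPM column, and 50 matched those behind a TPM column of another name. By nearest library, 54 of 55 TPM columns and 28 of 55 count columns matched a library of their own group. The TPM columns were therefore used for all multi-omic values. Gene lengths solved from the RNA-only tables turned the TPM into whole reads for 100% of nonzero values of 37194 genes, within 0.05 reads.

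The 25664 genes that reached 1 TPM in 3 or more libraries were kept, and their TPM were scaled by trimmed mean of M-values, and log2 (TPM + 1) was tested with limma 3.58.1 over all groups (40 residual degrees of freedom). RNA-only counts (23848 genes) were tested with edgeR 4.0.16 quasi-likelihood, with line and stage in the purity fit (8 residual degrees of freedom) and differentiation in the time fit (15). Adjusted p-values are Benjamini-Hochberg over all tested genes, and intervals are 95% t intervals. DESeq2 1.42.0 and R 4.3.3 were also used. Well numbers were checked for pairing: over 24 same-numbered pairs r was -0.02 to 0.03, so they do not pair wells, whereas RNA-only samples pair by line. The genes and lists were chosen with earlier results of these data known. All 8 genes are named, from other lists the called genes with the 2 largest changes in a comparison (1 such gene is not reported here), always MKI67, MCM2, NANOG, SOX2 and TNNT2, and the 3 genes most correlated with each of the 8.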

Additional observations from a re-analysis of the deposited data

Results flagged for a closer look

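In sets of 4 wells, 5 highest values stood far from the other 3, out of 77 sets examined, and chance gives about 1 in 20. TET3 was at 16.0 TPM in 1 high purity well of day 2, where the others had 14.6, 14.7 and 14.8 TPM. On day 6 a high purity well had 99.8 TPM of DNMT1, against 88.1, 88.6 and 89.4 TPM, and a high purity well had 187 TPM of DNMT3A, against 138, 140 and 144 TPM. DNMT1 was at 184 TPM in 1 low purity well of day 0, against 162, 164 and 165 TPM. TET3 was at 23.5 TPM in 1 low purity well of day 6, against 21.5, 21.5 and 21.7 TPM.

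The change from day 0 differed between the differentiations, by the test of that difference with limma, for UHRF1 on day 2 (-1.18) and day 16 (-1.74) and for TET1 on day 16 (1.07).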

How the results depend on the processing

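No result reversed under any alternative run on the TPM columns. With no fold threshold, 29 class differences, 49 changes with time, 17 differences in change and 7 RNA-only changes were called, in place of 2, 21, 3 and 2. Without scaling beyond TPM 4 class differences were called. Counts from the multi-omic count table under its own column names, an alternative chosen after seeing the data, gave 7 changes with time and 5 differences in change, and of the 26 called multi-omic results 19 had the opposite sign there and 0 were called with the same sign. Leaving out 1 well at a time gave 2 to 3 class differences, 20 to 22 changes with time and 3 to 4 differences in change. Leaving out 1 line gave 2 to 4 RNA-only changes, 4 without H9, and 0 purity differences. With the well number as a block 2, 21 and 4 results were called, UHRF1 on day 8 being added at -1.02, and without the block for line or differentiation RNA-only counts were 0 and 2. Calls near the threshold moved with single wells: DNMT1 between days 0 and 2 in high purity wells was -1.00 without day 0 replicate 3. Adjusted p was also above 0.05 when 1 well was left out for DNMT3A and TET1 on day 6 (up to 0.259 and 0.0974) and DNMT1 on days 8 and 16 (up to 0.0716 and 0.216). The same held when 1 line was left out for RNA-only DNMT3A and TET3 from day 0 to day 2 or 3 (up to 0.0631 and 0.129). It also held for DNMT3B in the step to day 4 or 5 and for TET2 in the step to day 6 or 7 (up to 0.234 and 0.401). The DNMT3B fall and TET2 rise from day 0 to day 2 or 3 were called in all 3 fits that left out a line. Of the 8 genes, DNMT3L was limited by depth.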
